A study of Mus musculus with 10 samples.

Results

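The ABCA genes encode large membrane transporters that use ATP to move lipids, and 8 of them are described here in mouse brain cortex: Abca2, Abca3, Abca4, Abca5, Abca7, Abca8a, Abca8b and Abca9. They are 8 of the 22198 genes in the deposited table and 8 of the 16 ABCA genes it lists. The members are a list of names with no cutoff, chosen from the same table with the levels and the genotype differences already known, so their differences between the genotypes are given as a description. The libraries fall into 2 groups, 5 labelled BKO (genotype Mic19 knockout) and 5 labelled ctrl (genotype Mic19 wild type). All mice were 6 months old and untreated, and the tissue was whole cortex. Mic19 is encoded by Chchd3 and belongs to MICOS, the protein complex that forms the cristae of mitochondria. The labels do not say which promoter or cell type restricts the deletion, nor whether different mice gave the libraries, so all errors and p-values here reflect variation among libraries, which may be technical.

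ABCA proteins are full transporters: a single chain carries both membrane domains and both ATP-binding domains. They flip or export phospholipids, cholesterol and sphingolipids at the cell surface or into endosomes, lysosomes and lamellar bodies. In the brain ABCA2 is best known from oligodendrocytes, where it sits in endosomes and lysosomes and myelin lipid metabolism depends on it. ABCA1 and ABCA7 are known for export of phospholipid and cholesterol to apolipoproteins.

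Levels are in FPKM, a read density that corrects for transcript length and library size, so genes can be set side by side per length. Differences are BKO minus ctrl of log2(FPKM + 0.5), a scale on which low genes appear to change less than they do, and carry limma's moderated standard error (SE). A gene passed when its Benjamini-Hochberg adjusted p over all 14447 genes tested was under 0.05. The library sums ran from 730340 to 766786 FPKM, read totals were not used here, and a rough estimate of relative depth from the smallest steps in the values gave 0.832 to 1.13. Chchd3 itself had a higher mean in the libraries labelled BKO, at 88.2 ± 4.54 FPKM against 78.4 ± 3.53 FPKM in those labelled ctrl (SD, n = 5 each). Its log2 difference of 0.17 did not pass (SE 0.0472, limma adjusted p = 0.0528). A value summed over the gene does not show whether single exons were lost. Directions below are therefore those of the libraries as labelled. Transcripts of the choroid plexus, the secretory tissue of the ventricles, split the libraries across the labels: Ttr stood at 1098 to 2720 FPKM in BKO 1, 2 and 5 and ctrl 1, 3 and 5, and at 38.9 to 89.9 FPKM in BKO 3 and 4 and ctrl 2 and 4.

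Of the 8 members, 2 fell in the libraries labelled BKO and 0 rose (limma, adjusted p under 0.05), and the same 2 were the members whose groups did not overlap, both lower. At an unadjusted p under 0.05, 2 were lower and 0 higher. The genes that fell were Abca8a and Abca2. Over all tested genes 5.79% passed, 2.46% as lower and 3.32% as higher, and in 6.71% the groups did not overlap, with 3.09% lower and 3.62% higher in BKO. These shares are background only and nothing is read from the members' count, since the members were chosen on this contrast. All 8 members passed the filter on low values, with 0.5 FPKM or more in all 10 libraries. Their median log2 difference was 0.05, against -5.25e-05 over all genes tested, and their differences ran from -1.62 to 0.12.

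Abca8a and its 3 nearest relatives of the list lie together on mouse chromosome 11. In the annotation Abca8b, Abca8a, Abca9, Abca6 and Abca5 follow each other on the minus strand with no other protein-coding gene between them. The promoter windows of Abca8a and of its neighbours Abca8b and Abca9 are shown because these adjacent genes differed in their values, with that of Abca2 as the other gene that fell. Each runs from 250 bases before to 50 bases after the start site, 5′ to 3′ on the gene's strand, from RefSeq on GRCm38.p6, which is not the mm39 build named for the reads. The windows are chr11:110095888-110096187 (minus strand) for Abca8a, chr11:109995796-109996095 (minus strand) for Abca8b, chr11:110168104-110168403 (minus strand) for Abca9 and chr2:25428349-25428648 (plus strand) for Abca2. Capitals mark the motifs found.
Abca8a: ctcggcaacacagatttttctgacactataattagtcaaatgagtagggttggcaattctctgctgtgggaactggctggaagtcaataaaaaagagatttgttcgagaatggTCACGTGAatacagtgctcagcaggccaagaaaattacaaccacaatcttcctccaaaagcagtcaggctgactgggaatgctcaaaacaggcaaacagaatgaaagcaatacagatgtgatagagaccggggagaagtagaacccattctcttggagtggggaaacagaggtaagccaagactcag
Abca8b: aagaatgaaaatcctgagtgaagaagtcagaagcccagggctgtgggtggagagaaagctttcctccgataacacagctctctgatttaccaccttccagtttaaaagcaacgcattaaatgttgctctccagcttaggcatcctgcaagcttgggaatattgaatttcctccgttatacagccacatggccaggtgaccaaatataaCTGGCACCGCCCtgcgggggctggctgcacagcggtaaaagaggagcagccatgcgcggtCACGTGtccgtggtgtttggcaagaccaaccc
Abca9: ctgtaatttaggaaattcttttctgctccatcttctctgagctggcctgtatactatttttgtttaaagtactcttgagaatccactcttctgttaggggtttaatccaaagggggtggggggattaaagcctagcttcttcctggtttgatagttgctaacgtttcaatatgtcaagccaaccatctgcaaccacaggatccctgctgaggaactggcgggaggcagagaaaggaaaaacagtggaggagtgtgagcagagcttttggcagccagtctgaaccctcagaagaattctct
Abca2: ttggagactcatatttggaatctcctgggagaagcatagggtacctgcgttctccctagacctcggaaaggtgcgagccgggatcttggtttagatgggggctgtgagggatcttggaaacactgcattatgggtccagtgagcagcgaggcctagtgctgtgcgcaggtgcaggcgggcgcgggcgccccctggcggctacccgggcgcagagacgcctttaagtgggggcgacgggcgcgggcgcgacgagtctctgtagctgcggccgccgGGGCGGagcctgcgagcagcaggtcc

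Motifs were searched on both strands as exact letters. The lysosomal CLEAR element was searched as TCACGTGA and the E-box as CACGTG. The SOX motif was searched as AACAAT, the motif of the myelin regulator MYRF as CTGGCAC and also as CTGGTAC, and the TATA box as TATAAA. The GC box was searched as GGGCGG, the CEBP-ATF motif as TGATGNAA and the sterol regulatory element as TCACNCCAC. The Abca8a window held the CLEAR element, which contains the E-box, starting 137 bases before the start site. This element was in 0.974% of all 32851 windows of the same length. The Abca8b window held an E-box (7.15% of windows), a MYRF match (7.10% of windows) and a GC box (35.7% of windows), the last beginning with the final base of the MYRF match. The Abca9 window held none of the motifs and that of Abca2 a GC box. Among the members that did not pass, the Abca3 window held a sterol regulatory element (1.24% of windows), a MYRF match and a GC box. The Abca4 window held a TATA box, and those of Abca5 and Abca7 held GC boxes. The windows also differed in CpG dinucleotides. There were 4 in Abca8a, 10 in Abca8b and 2 in Abca9, against 26 in Abca2, 29 in Abca3, 40 in Abca5, 19 in Abca7 and 15 in Abca4, where the median of all windows was 7. A match is a run of letters and not a measured binding site.

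Abca8a, a relative of human ABCA8, which has been tied to cholesterol export and to sphingomyelin synthesis in oligodendrocytes, fell about 4-fold. Its level was 0.76, 1.01, 0.81, 0.97 and 1.22 FPKM in BKO 1 to 5, against 3.89, 3.74, 3.89, 4.21 and 4.01 FPKM in ctrl 1 to 5. All 5 BKO values were below all 5 ctrl values, with a wide gap between the groups. The means were 0.954 ± 0.182 FPKM in BKO and 3.95 ± 0.175 FPKM in ctrl (SD, n = 5 each), so that ctrl was 4.14-fold higher. The log2 difference was -1.62 (SE 0.118), and it was -1.96 and -1.34 with pseudocounts of 0.1 and 1. Of the 14447 genes tested, 7 had a lower log2 difference.

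Abca8b, the neighbouring paralog of Abca8a, did not pass. It stood at 9.77, 8.58, 8.90, 9.33 and 8.21 FPKM in BKO libraries 1 to 5 and at 8.24, 8.89, 8.78, 8.35 and 7.71 FPKM in ctrl libraries 1 to 5, and the groups overlapped. The log2 difference was 0.09 (SE 0.0727, 95% interval -0.07 to 0.24). The ratio of Abca8a to Abca8b in the same library was therefore 0.108 ± 0.0272 in BKO and 0.472 ± 0.0413 in ctrl (SD, n = 5 each), with 0.0778 to 0.149 in BKO and 0.421 to 0.520 in ctrl. The longest annotated transcripts of the 2 genes were 74.7% identical over 4873 aligned bases, and 1.89% of the 50-base words of Abca8a also occurred in Abca8b. Reads from such stretches could be counted for either gene or left out, and how the authors treated them is not given in the sources used here. The annotation also places the antisense gene Gm11697 over Abca8b, and antisense genes over Abca3 and Abca4, and reads of such partners cannot be told apart where counting ignores strand, which is not stated.

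Abca9, the next gene along, is known in human macrophages as a gene that responds to cholesterol. It had 2.24, 3.08, 2.26, 3.01 and 2.29 FPKM in BKO libraries 1 to 5, against 2.33, 2.29, 2.20, 2.69 and 2.17 FPKM in ctrl libraries 1 to 5. BKO 2 and 4 lay above every ctrl library and the other BKO libraries within the ctrl range. The log2 difference was 0.11 (SE 0.120, 95% interval -0.15 to 0.37). Its transcript shared no 50-base word with that of Abca8a, at 71.6% identity over 4826 aligned bases.

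Abca5, at the far end of the cluster, encodes a transporter of lysosomes and late endosomes. It averaged 11.2 ± 0.629 FPKM in BKO (lowest 10.2, highest 11.8) and 11.9 ± 0.829 FPKM in ctrl (SD, n = 5 each; lowest 10.7, highest 12.8). The log2 difference was -0.07 (SE 0.0691, 95% interval -0.22 to 0.07). Abca6, the cluster gene outside the list, averaged 0.572 ± 0.113 FPKM in BKO and 0.884 ± 0.226 FPKM in ctrl (SD, n = 5 each), and its log2 difference of -0.36 did not pass (SE 0.170, adjusted p = 0.298, limma). So of the 5 cluster genes Abca8a was the one whose difference passed, and differences between the neighbours were not tested against each other.

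**Figure D1:**
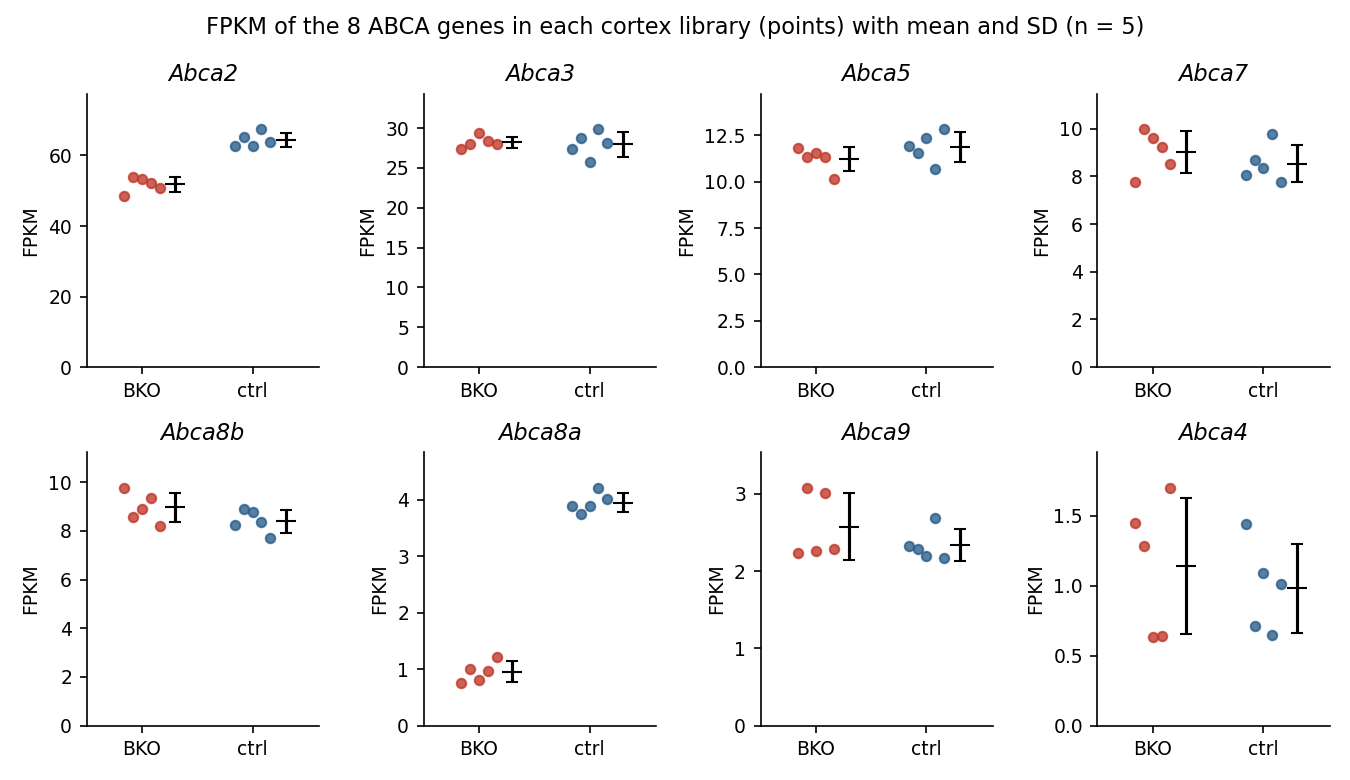
FPKM (vertical axes, each starting at 0) of the 8 ABCA genes in the 5 BKO and 5 ctrl libraries, 1 point per library, with mean and SD as bars. Abca8a (0.954 FPKM in BKO, 3.95 FPKM in ctrl) and Abca2 (51.8 FPKM in BKO, 64.3 FPKM in ctrl) show no overlap between the groups, and the other 6 genes overlap.

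Abca2 was the most abundant member in every library, and it fell too. Its level was 48.6, 53.9, 53.4, 52.2 and 50.9 FPKM in BKO 1 to 5, against 62.6, 65.2, 62.6, 67.4 and 63.9 FPKM in ctrl 1 to 5. The groups did not overlap. The means were 51.8 ± 2.14 FPKM in BKO and 64.3 ± 2.03 FPKM in ctrl (SD, n = 5 each), a difference of -19.5% in BKO, and the log2 difference was -0.31 (SE 0.0433). In the 4 libraries of low Ttr alone the log2 difference was -0.32 (SE 0.0722) and did not pass, with 2 libraries in each group, while that of Abca8a was -1.69 (SE 0.219) and passed. In the 6 libraries of high Ttr alone both passed, at -0.30 (SE 0.0625) for Abca2 and -1.58 (SE 0.169) for Abca8a. Abca2 made up 45.5 ± 0.723% of the summed FPKM of the 8 members in BKO and 50.1 ± 0.263% in ctrl (SD, n = 5 each).

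Myelinating oligodendrocytes are the cortical cells in which ABCA2 is best known, and their markers were also lower in BKO. All 12 listed markers fell, where 2.46% of all genes tested did. Their summed level was 1010 to 1364 FPKM in BKO and 3000 to 3582 FPKM in ctrl, with no marker at 0. Hapln2, which helps build the matrix around nodes of Ranvier, averaged 8.23 ± 1.32 FPKM in BKO and 31.4 ± 2.00 FPKM in ctrl (SD, n = 5 each). Aspa, an enzyme that cleaves N-acetylaspartate, averaged 7.66 ± 0.471 FPKM in BKO and 21.6 ± 2.76 FPKM in ctrl (SD, n = 5 each). The median log2 difference of the 12 was -1.42 and the range -1.88 to -0.96, so Abca8a at -1.62 lay within it and Abca2 at -0.31 outside it. The added 0.5 shrinks the difference of a gene as low as Abca8a more than those of the markers. By ratio of means ctrl was 4.14-fold higher for Abca8a and 1.95-fold (Mag) to 3.82-fold (Hapln2) higher for the markers. The place of Abca8a within the range, and its offset from the markers given next, therefore depend on this scale. Set against the mean log2 level of the 12 markers in the same library, Abca8a stood at -4.84 ± 0.305 in BKO and -4.62 ± 0.126 in ctrl, with overlap between the groups. Abca2 stood at 0.33 ± 0.154 in BKO and -0.75 ± 0.133 in ctrl (log2 scale, SD, n = 5 each), without overlap. In bulk tissue, fewer cells of a type and less RNA per cell cannot be told apart, and the part of the oligodendrocyte markers in the falls of Abca8a and Abca2 was not tested.

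**Figure D2:**
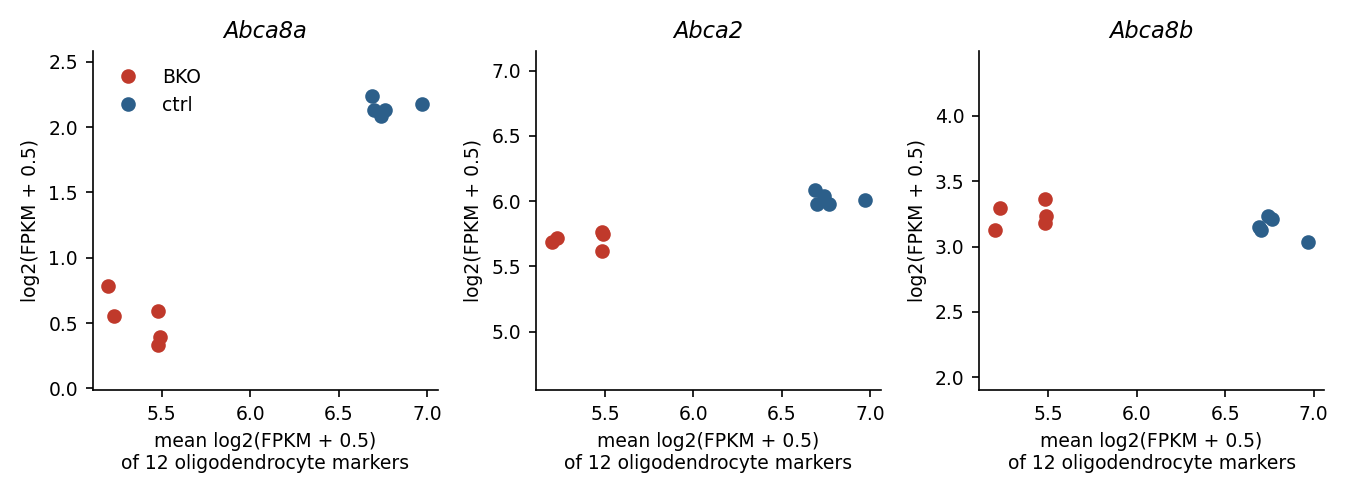
Levels of Abca8a, Abca2 and Abca8b (vertical axes, log2(FPKM + 0.5), each spanning the same range) against the mean log2 level of 12 oligodendrocyte markers (horizontal axes) in 5 BKO and 5 ctrl libraries. BKO minus ctrl, the marker mean differs by -1.40, Abca8a by -1.62, Abca2 by -0.31 and Abca8b by 0.09.

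The list for earlier cells of the lineage is short, so its count cannot be set apart from the 5.79% of all genes tested that passed. Among 6 markers of oligodendrocyte precursors and early differentiation, 1 fell and 0 rose (limma), with 1 lower and 0 higher at an unadjusted p under 0.05. It was Enpp6, a phosphodiesterase of newly forming oligodendrocytes, at 1.83 ± 0.528 FPKM in BKO and 3.81 ± 0.650 FPKM in ctrl (SD, n = 5 each; log2 difference -0.90, SE 0.160, limma adjusted p = 0.00241). It did not pass in the 6 libraries of high Ttr (-0.79) or the 4 of low Ttr (-1.07) alone. Of 8 transcription factors of the lineage, 5 fell and 0 rose (limma), where 2.46% of all genes tested fell and 3.32% rose. Those that fell included Sox10 (log2 difference -0.89, SE 0.109) and Myrf (log2 difference -0.99, SE 0.0888), a factor that oligodendrocytes need to make and keep myelin. The log2 difference was -0.44 (SE 0.0482) for Olig1, -1.27 (SE 0.175) for Nkx6-2 and -0.37 (SE 0.0766) for Sox8. The other 3 did not pass, namely Olig2 (-0.14), Nkx2-2 (-0.42) and Zfp488 (0.17).

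The genes whose profiles over the 10 libraries were nearest to Abca8a were Aspa, Itgb4 and Fbxw15, with a root mean square difference of 0.179, 0.182 and 0.186 between profiles centred on their own mean (log2 scale, 13628 genes with a mean of at least 1 FPKM). For Abca2 they were Frmd8, Map7 and Kif13a, at 0.0461, 0.0534 and 0.0557. Map7, a microtubule-binding protein, stood at 39.9 ± 1.61 FPKM in BKO and 49.6 ± 1.55 FPKM in ctrl (SD, n = 5 each). A small difference says that levels moved alike in these libraries, and it reads the genotype difference that was already known.

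Abca3, which loads phospholipid into the lamellar bodies of lung surfactant cells, was the second most abundant member and did not pass. It had 27.4, 28.0, 29.4, 28.4 and 28.0 FPKM in BKO libraries 1 to 5, against 27.4, 28.7, 25.7, 29.9 and 28.1 FPKM in ctrl libraries 1 to 5. The log2 difference was 0.01 (SE 0.0508, 95% interval -0.09 to 0.12), the narrowest interval among the 6 members that did not pass. Its sign turned to -0.01 without ctrl 3 and to -0.02 in the 4 libraries of low Ttr. The level of Abca2 over that of Abca3 in the same library was 1.84 ± 0.0567 in BKO and 2.30 ± 0.0733 in ctrl (SD, n = 5 each).

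Abca7, a phospholipid exporter whose human gene carries variants linked to Alzheimer's disease, averaged 9.02 ± 0.886 FPKM in BKO (lowest 7.77, highest 9.98) and 8.52 ± 0.779 FPKM in ctrl (lowest 7.75, highest 9.78; SD, n = 5 each). The groups overlapped almost wholly, and the log2 difference was 0.08 (SE 0.0860, 95% interval -0.11 to 0.26).

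Abca4, the retinoid lipid flippase of photoreceptors, was high in the libraries rich in choroid plexus transcripts, whichever their genotype label. Its level was 1.45, 1.28, 0.63, 0.64 and 1.70 FPKM in BKO 1 to 5, against 1.44, 0.71, 1.09, 0.65 and 1.01 FPKM in ctrl 1 to 5. The 6 libraries of high Ttr held 1.01 to 1.70 FPKM and the 4 of low Ttr 0.63 to 0.71 FPKM, without overlap. The same held for the 7 choroid plexus markers other than Ttr, which set the split, among them Aqp1, Slc4a5 and Kl, and for 0.658% of all genes tested in that direction. ABCA4 has also been described at the choroid plexus in the rat. The log2 difference between the genotypes was 0.12 (SE 0.221, 95% interval -0.35 to 0.60), and with 1 library left out it ran from 0.000922 (without BKO 5) to 0.241 (without BKO 3). It was 0.24 (SE 0.193) within the 6 libraries of high Ttr, -0.06 (SE 0.278) within the 4 of low Ttr and 0.03 (SE 0.138) with the mean level of the 8 choroid plexus markers as a covariate, and it passed in none of these fits. The summed level of the 8 markers was 72.6 to 2761 FPKM in BKO and 44.9 to 2614 FPKM in ctrl, with 1 marker listed at 0 in 1 library, Aqp1 in ctrl 2. Between the genotypes 0 of the 8 markers passed (limma), and 0 had an unadjusted p under 0.05. The part of choroid plexus tissue in the spread of Abca4 was not tested. The nearest profiles to Abca4 were those of Car12, Trpm3 and Cfap45, at a root mean square difference of 0.152, 0.170 and 0.182. Of the other members, Abca3 was apart in the opposite direction, at 25.7 to 28.1 FPKM in the 6 libraries of high Ttr and 28.4 to 29.9 FPKM in the 4 of low Ttr, as were 0.436% of all genes tested.

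**Figure D3:**
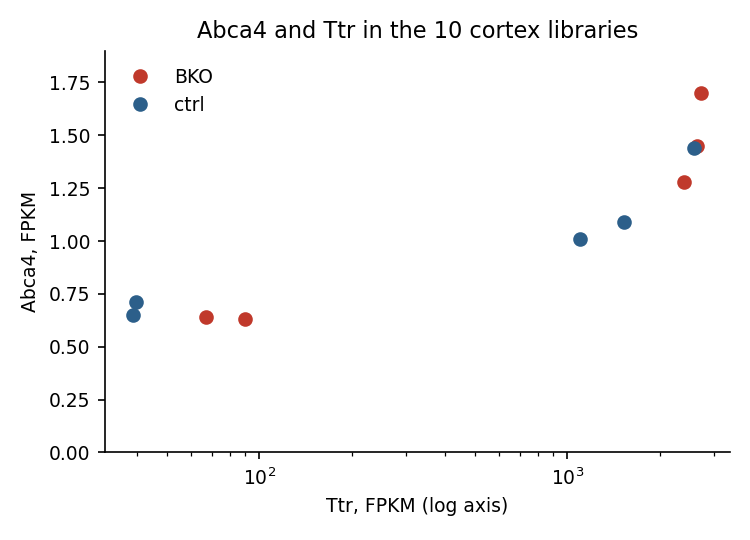
Abca4 (vertical axis, FPKM) against the choroid plexus transcript Ttr (horizontal axis, FPKM, log scale) in 5 BKO and 5 ctrl libraries, 1 point per library. The 6 libraries with Ttr of 1098 to 2720 FPKM hold 1.01 to 1.70 FPKM of Abca4 and the 4 others 0.63 to 0.71 FPKM, with both labels on each side.

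The order of levels was the same in both groups except for Abca8a. In BKO it ran Abca2, Abca3, Abca5, Abca7, Abca8b, Abca9, Abca4 and Abca8a, and in ctrl Abca2, Abca3, Abca5, Abca7, Abca8b, Abca8a, Abca9 and Abca4. Abca7 and Abca8b overlapped in both groups, and Abca4 and Abca8a overlapped in BKO. All other neighbours in the order were apart over the 5 libraries. The spread between libraries of a group, as a coefficient of variation, was 2.59% to 6.98% for Abca2, Abca3, Abca5 and Abca8b and 32.5% to 42.5% for Abca4. The 8 members summed to 114 ± 3.31 FPKM in BKO and 128 ± 3.48 FPKM in ctrl (SD, n = 5 each).

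Of the other 8 ABCA genes, 2 were high enough to be tested. Abca1, which exports cholesterol and phospholipid to apolipoproteins, rose, at 7.99 ± 0.429 FPKM in BKO and 4.88 ± 0.230 FPKM in ctrl (SD, n = 5 each). All 5 BKO values were above all 5 ctrl values, and the log2 difference was 0.66 (SE 0.0749, limma adjusted p = 4.65e-05), which did not pass in the 4 libraries of low Ttr alone (0.63, adjusted p = 0.112, limma). Abca17, the gene beside Abca3, stood at 0.19 to 0.50 FPKM in BKO and 0.35 to 0.61 FPKM in ctrl, and Abca16 was listed at 0 in all 10 libraries. The other 4, Abca12, Abca13, Abca14 and Abca15, stayed at or below 0.09 FPKM.

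Across the rest of the ABC superfamily, 33 further genes were listed and 26 tested. Of these 26, 2 rose while 0 fell (limma), where 3.32% of all genes tested rose and 2.46% fell. At an unadjusted p under 0.05, 2 were higher and 0 lower. They were Abcc4, an exporter of organic anions and cyclic nucleotides, and Abcd3, which carries fatty acids into peroxisomes. Abcc4 averaged 4.66 ± 0.606 FPKM in BKO and 2.83 ± 0.303 FPKM in ctrl (SD, n = 5 each; log2 difference 0.63, SE 0.109, limma adjusted p = 0.00197), and did not pass in the 6 libraries of high Ttr (0.57) or the 4 of low Ttr (0.72) alone. Abcd3 averaged 39.3 ± 1.51 FPKM in BKO and 34.6 ± 1.52 FPKM in ctrl (log2 difference 0.18, SE 0.0477, limma adjusted p = 0.0390). Its call was lost without each library other than ctrl 3 or BKO 5 in turn (limma adjusted p = 0.0554 to 0.0968). The median log2 difference of these 26 genes was -0.003, beside 0.05 for the 8 members and -5.25e-05 for all genes tested.

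**Figure D4:**
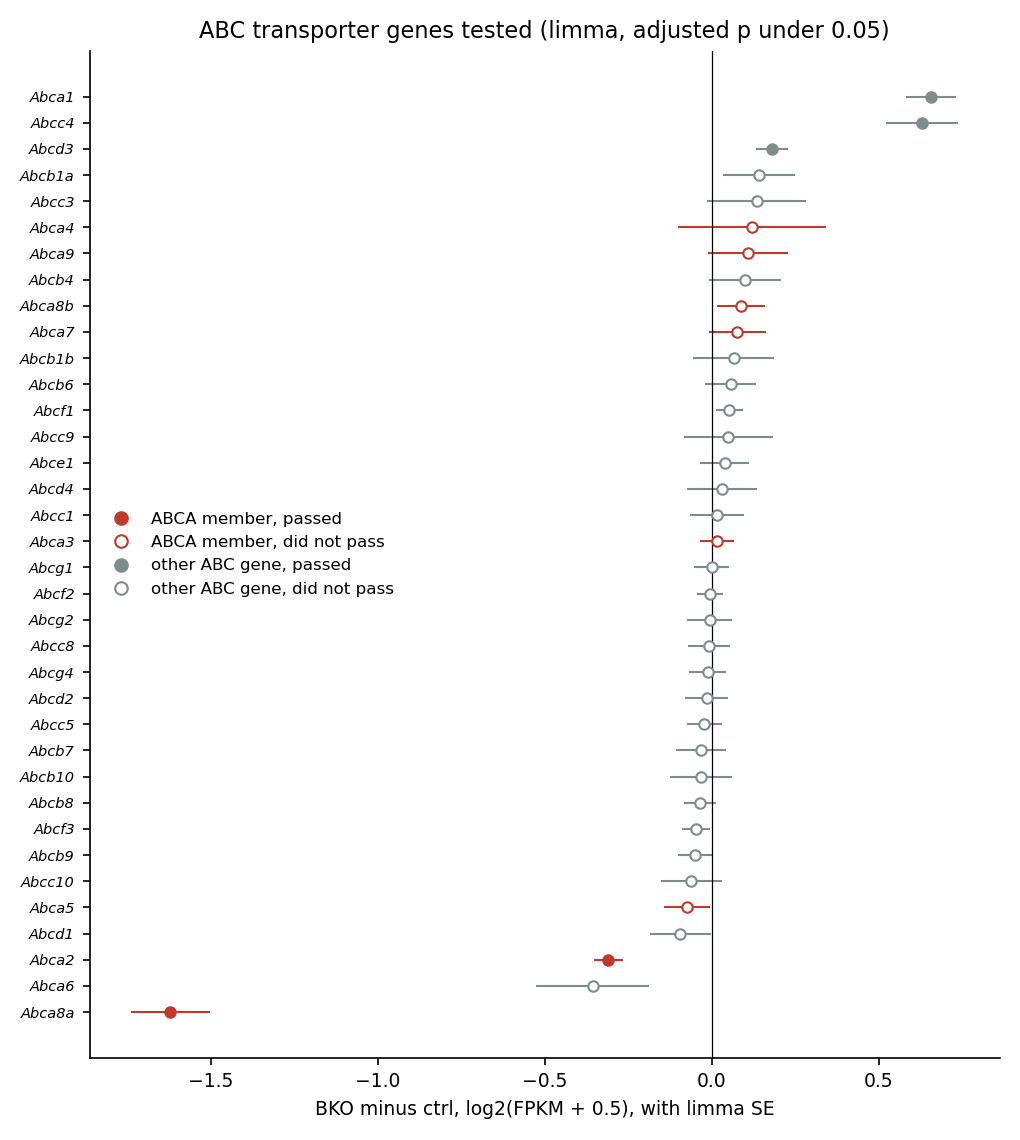
BKO minus ctrl differences (horizontal axis, log2(FPKM + 0.5), bars are limma's SE) for the 36 ABC transporter genes tested, the 8 listed ABCA genes in red and the others in grey, filled where the adjusted p over all genes was under 0.05. Abca8a (-1.62) and Abca2 (-0.31) fell, and Abca1 (0.66), Abcc4 (0.63) and Abcd3 (0.18) rose.

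The lipid partners are a list of genes of lipid handling and its regulation. Of the 22 tested, 5 fell and 2 rose, where 2.46% of all genes tested fell and 3.32% rose. Apod, a lipid-binding apolipoprotein made by oligodendrocytes and other glia, averaged 198 ± 27.1 FPKM in BKO and 362 ± 32.3 FPKM in ctrl (SD, n = 5 each; log2 difference -0.88, SE 0.0848, limma adjusted p = 9.57e-06). Plin2, a coat protein of lipid droplets, averaged 7.86 ± 0.801 FPKM in BKO and 4.34 ± 0.461 FPKM in ctrl (log2 difference 0.79, SE 0.0966). Npc2, which carries cholesterol out of lysosomes, was also higher (log2 difference 0.37, SE 0.0631). Clu, an apolipoprotein of astrocytes, was lower (log2 difference -0.22, SE 0.0465), and its call was lost after quantile normalization (-0.18, limma adjusted p = 0.0514). The other genes that fell were Srebf2 (-0.17), Lcat (-0.23) and Mfsd2a (-0.36), named here to complete the count. The call of Lcat was lost without ctrl 1, 3, 4 or 5 or BKO 1, 3 or 5 (limma adjusted p = 0.0515 to 0.0763), with the libraries scaled to 1 sum (limma adjusted p = 0.0609) and with the replicate block (limma adjusted p = 0.0686). Of the 7 genes, 3 passed in the 6 libraries of high Ttr alone (Apod, Npc2 and Plin2) and 1 in the 4 of low Ttr (Apod). Of 7 markers of astrocytes, the cells that make most brain cholesterol, 3 rose, where 3.32% of all genes tested did. They were Aldh1l1 (log2 difference 0.51, SE 0.0486), Aqp4 (log2 difference 0.64, SE 0.0928) and Slc1a3 (log2 difference 0.19, SE 0.0425). The other 4 did not pass, namely Gja1 (0.09), Slc1a2 (0.04), Aldoc (-0.03) and S100b (-0.11). Slc1a3 did not pass in the 6 libraries of high Ttr (0.22) or the 4 of low Ttr (0.15) alone. The 7 markers summed to 1896 to 2014 FPKM in BKO and 1795 to 1999 FPKM in ctrl, with no marker at 0, and their part in the rise of Abca1 was not tested.

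The lists for the remaining cortical cells are short, so their counts cannot be set apart from the 5.79% of all genes tested that passed. Of 7 neuronal markers 1 fell, Snap25 of the synaptic release machinery (log2 difference -0.18, SE 0.0474, limma adjusted p = 0.0379), and its call was lost without 8 of the 10 libraries in turn. Their summed level was 3792 to 4211 FPKM in BKO and 4117 to 4557 FPKM in ctrl. Among 6 markers each of microglia, endothelial cells, mural cells and fibroblasts of the meninges, 0 passed (limma), and 2, 1, 1 and 0 of them had an unadjusted p under 0.05.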

How the data were processed

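RNA sequencing of total RNA from brain cortex was measured in 10 libraries, 5 labelled BKO and 5 labelled ctrl, grouped by their titles. The authors deposited FPKM, computed by them, with 1 column per library, rounded to 2 decimals, for 22198 genes and 0 columns of other samples. The submitters' processing notes name STAR, HTSeq and mm39; versions, filters and the FPKM formula are not given in the sources used here. No counts were used here, so read depth and counting intervals are not given. Relative depth was estimated from steps between low values; it held within 0.03 (log2) for 20 of 45 library pairs.

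A linear model of log2(FPKM + 0.5) was fitted in limma 3.58.1 (R 4.3.3) to genes that reached 0.5 FPKM in 5 or more libraries, with trended empirical Bayes variances, 2-sided p-values and Benjamini-Hochberg adjustment over 14447 genes. The fit was also run on simulated data with independent noise for each gene. Those data lack the choroid plexus split of the real libraries, so they give no error rate for them. The members and the gene lists were chosen with earlier results of these data known. All members are named; from each list up to 4 genes with the smallest p, and for the 3 members of largest difference the 3 nearest profiles, are named. Other genes are named only to complete a count or the ABCA family, after their values were seen. The split at a Ttr level of 1000 FPKM was set after the data were seen; fits on 1 side of it used a minimum of 0.5 FPKM in 3 libraries (high Ttr) or 2 (low Ttr). Promoters came from RefSeq (GRCm38.p6; all 8 members matched), and transcripts and neighbours from GENCODE, used for names and likeness only. Python 3.11.15, numpy 2.4.6, pandas 2.3.3, Biopython 1.88 and matplotlib 3.10.9 made summaries and figures. Pseudocounts of 0.1 and 1, no filter, a filter of 2 FPKM, 3 rescalings, a replicate block, library weights, a robust fit and each library left out were the alternatives.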

Additional observations from a re-analysis of the deposited data

Results flagged for a closer look

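Among 30 genes in 2 groups of 5 libraries each, 60 groups in all, 2 libraries stood far from the rest of their group, where chance flags about 1 in 20 groups. Abca1 in ctrl 2 was at 4.48 FPKM, the lowest of the ctrl libraries, with ctrl 3 next at 4.92 FPKM. Nkx6-2 in ctrl 5 was at 14.87 FPKM, the highest of the ctrl libraries, with ctrl 3 next at 11.61 FPKM. None of the 8 ABCA members had such a library.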

How the results depend on the processing

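Under 20 alternatives, and 3 more added after the data were seen, 178 of 183 values for the 8 members kept their direction and their side of the threshold. Abca8a passed in all 24 fits (-1.96 to -1.34). Abca2 passed in all but the 4 libraries of low Ttr (-0.32, adjusted p = 0.0848, limma), so that the number of members that fell was 1 there and 2 in every other fit, the 10 with 1 library left out included (2 to 2). The sign turned for Abca3 without ctrl 3 (-0.0148, leave-one-out values -0.0148 to 0.0383) and, in the 4 libraries of low Ttr, for Abca3 (-0.0209), Abca4 (-0.0556) and Abca5 (0.0414), none of which passed in any fit. Abca4 could not be tested with the filter of 2 FPKM. In the 6 libraries of high Ttr and the 4 of low Ttr, which hold fewer samples, 1 and 0 other ABC genes rose, where 3 did with all, and 3 and 1 lipid partners changed, where 7 did. With 1 library left out these counts were 2 to 3 and 6 to 8. All 12 oligodendrocyte markers fell in every fit. Chchd3 passed as higher in BKO when all libraries were scaled to 1 sum (0.19), after quantile normalization (0.19), without ctrl 5 (0.19) and without BKO 4 (0.20).

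The replicate numbers gave no sign of pairing: same-numbered libraries deviated from their group means with correlations of -0.169 to 0.0855. Such values do not settle whether the samples were paired. With the replicate block 2 members fell, Abca2 by 0.31 and Abca8a by 1.62 on the log2 scale, 0 rose, 2 other ABC genes rose and 6 lipid partners changed, Abcd3 (adjusted p = 0.0919, limma) and Lcat (adjusted p = 0.0686, limma) no longer passing. The alternative without libraries of Ttr above 5 times the median was not run, since no library lay there. FPKM hides the read depth, so the counting error behind low values is unknown.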
